A study of Homo sapiens with 12 samples.

Results

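The response of RBE cells to knockdown of LKB1 was described across all genes that had a signal in this line. RBE is an established line of human intrahepatic cholangiocarcinoma (ICC), a cancer of the bile ducts within the liver. A gene was included when its value was at least 1 in at least 2 of the 4 RBE libraries, and 14460 of the 18764 genes named in the deposited table met this rule. The cells were grown in RPMI 1640 medium with serum and were harvested 48 h after transfection with either a scrambled control siRNA (2 libraries) or an siRNA to LKB1 (2 libraries). The same design was applied to the ICC lines HuH-28 and SSP-25, so the series held 12 libraries in 6 groups. All groups had therefore been through an siRNA transfection, and all RBE libraries came from 1 cell line at 1 time. The labels do not say whether libraries of a group came from separate cultures, so the p-values measure the spread between these libraries, which may be technical.

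LKB1 is a serine/threonine kinase encoded by STK11 and is a tumor suppressor. With its partners STRAD and MO25 it phosphorylates AMPK, the sensor of cellular energy, and a set of AMPK-related kinases that act on polarity, metabolism and growth. Among these, the salt-inducible kinases hold back the CRTC coactivators of CREB, and AMPK restrains mTORC1 and lipid synthesis.

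The values are normalized reads per kilobase and are called signal here. The signal of the RBE libraries summed to between 9918899 and 10268146, and the number of reads behind it is unknown, so no counting error can be given. Genes nearest the inclusion rule were ZNF534 just inside it, with RBE values of 0.4542, 1.014, 0.4753 and 1.001, and NTN3 just outside it, with 1.172, 0.005559, 0.9989 and 0.5269. Fold changes are differences of log2(signal + 0.5) between LKB1 siRNA and control siRNA, with the standard error (SE) and the adjusted p of a limma fit to all 12 libraries. A gene passed when its adjusted p was under 0.05, and it was called when its log2 fold change was also above 1 or below -1. With 2 libraries against 2, an exact permutation test of a single gene cannot go below p = 0.33 (two-sided), so these calls rest on a spread shared between genes and groups. The biliary keratins KRT7 (signal 14240 to 14980) and KRT19 (9489 to 11830) were abundant in every RBE library. Other biliary markers listed were weak, such as CFTR (0.31 to 2.673), ONECUT1 (0.002556 to 2.069) and PROM1 (12.2 to 26.49). ALB, APOA1, APOA2, APOB, APOC3 and HP, 6 of the 20 hepatocyte markers listed, did not exceed 1.171 in any RBE library. Others of the hepatocyte list had signal, such as SERPINA1 (1113 to 1553), HNF4A (162.7 to 174.5) and FGB (49.48 to 129.8). The T and B cell markers CD3E, CD3D, CD4, CD8A and MS4A1 stayed at or near 0, whereas CD68 (722.6 to 777.4) and LYZ (104.8 to 154.9) of the blood cell markers had signal.

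The targeted gene fell. STK11 (chromosome 19, 1177558 to 1228435, forward strand, GENCODE v29 on GRCh38) had a signal of 484.9 and 429.8 in the control libraries and of 130.0 and 155.7 in the LKB1 siRNA libraries. The groups did not overlap, and the log2 fold change was -1.68 ± 0.11 (SE, adjusted p = 3.22e-06, limma). Transcripts of the kinase's partners and of AMPK moved less. PRKAA1, the α1 catalytic subunit of AMPK, changed from 629.2 and 688.7 to 486.9 and 498.0, a log2 fold change of -0.42 ± 0.08 (adjusted p = 0.00168). The regulatory subunit PRKAG2 changed by -0.37 ± 0.10 (adjusted p = 0.0125), and by -0.34 and -0.23 (adjusted p = 0.0722 and 0.11) without control replicate 2 or LKB1 siRNA replicate 2. Of the 11 measured genes of the LKB1 complex and AMPK, 4 fell, 0 rose and 7 did not pass. Without LKB1 siRNA replicate 2 2 fell, and without HuH-28 in the fit or with the replicate block 2 rose.

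Many genes changed in RBE, and in the deposited scaling more rose than fell. Of all 14460 genes, 857 (5.93%) were called higher and 356 (2.46%) lower, together 8.39%, and 3506 (24.2%) and 2963 (20.5%) passed in these directions. The shares of 24.2% and 20.5% are those to set beside the counts of the gene lists below. The median log2 fold change over all genes was 0.03 and the median of its absolute value 0.30, against a median SE of 0.10. Calls were most frequent among weak signals. Of genes with a mean signal under 5, 19.4% were called, and of those at 2000 or more, 2.49%. Of the higher calls 97 had reached a signal of 1 in both LKB1 siRNA libraries and in neither control library, and of the lower calls 50 had the opposite pattern. Such genes had to differ to be included. With a mean signal of at least 20, 475 genes remained called higher and 213 lower. Higher genes made up 70.7% of the calls in the deposited scaling and 57.8% after quantile normalization, which moved the median log2 fold change to -0.02. After that normalization 3231 genes passed higher and 3409 lower, so the excess of passing rises depended on the scaling.

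**Figure D1:**
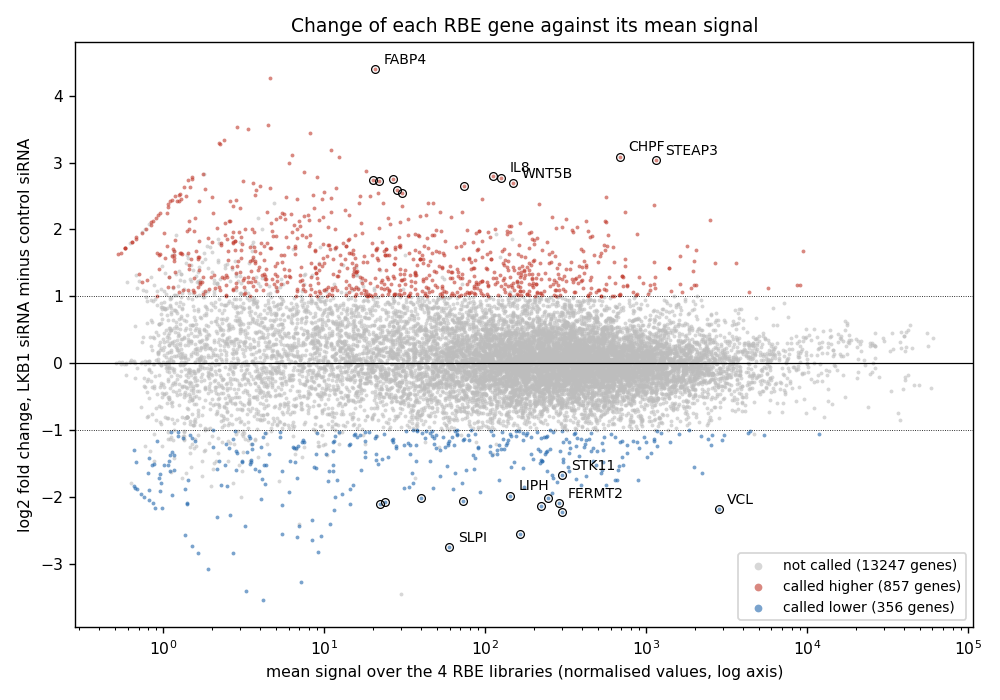
Each point is 1 of the 14460 RBE genes, with its mean signal over the 4 libraries on a log axis and its log2 fold change (LKB1 siRNA minus control siRNA) on the other axis. Red points are the 857 genes called higher, blue points the 356 called lower and gray points the rest, dotted lines mark log2 fold changes of 1 and -1, and circles mark STK11 and the 12 largest rises and falls at a mean signal of at least 20. CHPF, STEAP3 and VCL stand apart at high signal.

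The strongest rises in well expressed genes were those of CHPF and STEAP3. CHPF, a polymerizing factor for chondroitin sulfate chains, had a signal of 154.8 and 133.8 in the control libraries and of 1200 and 1257 in the LKB1 siRNA libraries, a log2 fold change of 3.09 ± 0.09 (adjusted p = 3.07e-08, limma). STEAP3, an endosomal ferrireductase, rose from 239.9 and 260.5 to 1967 and 2135, by 3.03 ± 0.08 (adjusted p = 1.87e-08). Both values with LKB1 siRNA were far above both control values in each gene. WNT5B, a ligand of the Wnt family, went from 33.6 and 45.41 to 214.2 and 302.1, by 2.69 ± 0.18 (adjusted p = 2.63e-06). PROCR, the endothelial protein C receptor, rose from 19.18 and 20.96 to 130.0 and 126.5, by 2.65 ± 0.09 (adjusted p = 5.36e-08). The neutrophil chemokine IL8 (CXCL8) rose from 28.09 and 35.64 to 213.9 and 225.4, by 2.77 ± 0.14 (adjusted p = 5.56e-07). In each of these genes the replicates lay close together beside the distance between the groups.

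The other rises among the 12 were as follows. SYT12, a member of the synaptotagmin family, rose from 26.43 and 28.72 to 189.9 and 200.9 (log2 fold change 2.80 ± 0.37, adjusted p = 0.000235, limma). SNCB, which encodes β-synuclein, DCAF12L2, the sugar transporter family gene SLC45A1, FAM83C and IGFL1 rose by 2.75, 2.74, 2.72, 2.59 and 2.55 from control values that did not exceed 8.698. With a pseudocount of 0.1 SNCB did not pass (adjusted p = 0.0649). FABP4, a carrier of fatty acids, had the largest fitted rise of the 12 at 4.40 ± 0.96 (adjusted p = 0.00467), and also the least even controls. Its signal was 5.705 and 0.01924 with control siRNA and 29.26 and 47.83 with LKB1 siRNA. Without control replicate 2 the log2 fold change of FABP4 was 2.61 (adjusted p = 0.017), and with the RBE libraries fitted alone it did not pass (adjusted p = 0.067).

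Among the 12 largest falls, VCL was the most abundant gene. VCL encodes vinculin, which links integrin adhesions to actin, and its signal was 4667 and 4559 in the control libraries and 1012 and 1009 with LKB1 siRNA (log2 fold change -2.19 ± 0.07, adjusted p = 6.59e-08, limma). FERMT2 (kindlin-2), an activator of integrins, fell from 451.5 and 480.6 to 104.4 and 113.0, by 2.10 on the log2 scale (SE 0.06, adjusted p = 3.14e-08). GXYLT1, a glucoside xylosyltransferase that acts on Notch, went from 380.1 and 403.6 to 105.9 and 87.3, a change of -2.02 ± 0.09 (adjusted p = 3.56e-07). LIPH, a phospholipase, went from 245.9 and 211.6 to 64.1 and 51.3, a change of -1.98 ± 0.21 (adjusted p = 4.76e-05). All values of these genes with LKB1 siRNA lay far below the lower control value.

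The other falls among the 12 were as follows. SLPI, the secretory leukocyte peptidase inhibitor, was at 102.1 and 104.8 with control siRNA and at 9.915 and 22.36 with LKB1 siRNA (log2 fold change -2.75 ± 0.34, adjusted p = 0.000151, limma). CST1, a salivary cystatin, changed from 278.5 and 286.0 to 49.07 and 46.19 (-2.55 ± 0.48, adjusted p = 0.00187), and did not pass with a pseudocount of 0.1 (adjusted p = 0.0604). AGR2, a disulfide isomerase of mucus-secreting cells, changed from 69.7 and 57.87 to 16.07 and 14.71 (-2.01 ± 0.22, adjusted p = 6.39e-05). SCEL (sciellin), a protein of the cornified envelope, changed by -2.07 ± 0.26 (adjusted p = 0.000142). CYP1A1, a cytochrome P450 induced through the aryl hydrocarbon receptor, changed from 359.5 and 363.1 to 88.24 and 76.24 (-2.13 ± 0.10, adjusted p = 3.49e-07). The lectin CD22 was the remaining fall in a gene above a mean signal of 100 among the 12, with a change of -2.23 ± 0.29 (adjusted p = 0.000219). LRRC66 and the Polycomb group gene SCML2 completed the 12, with changes of -2.11 and -2.08 at mean signals of 22.1 and 23.7.

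**Figure D2:**
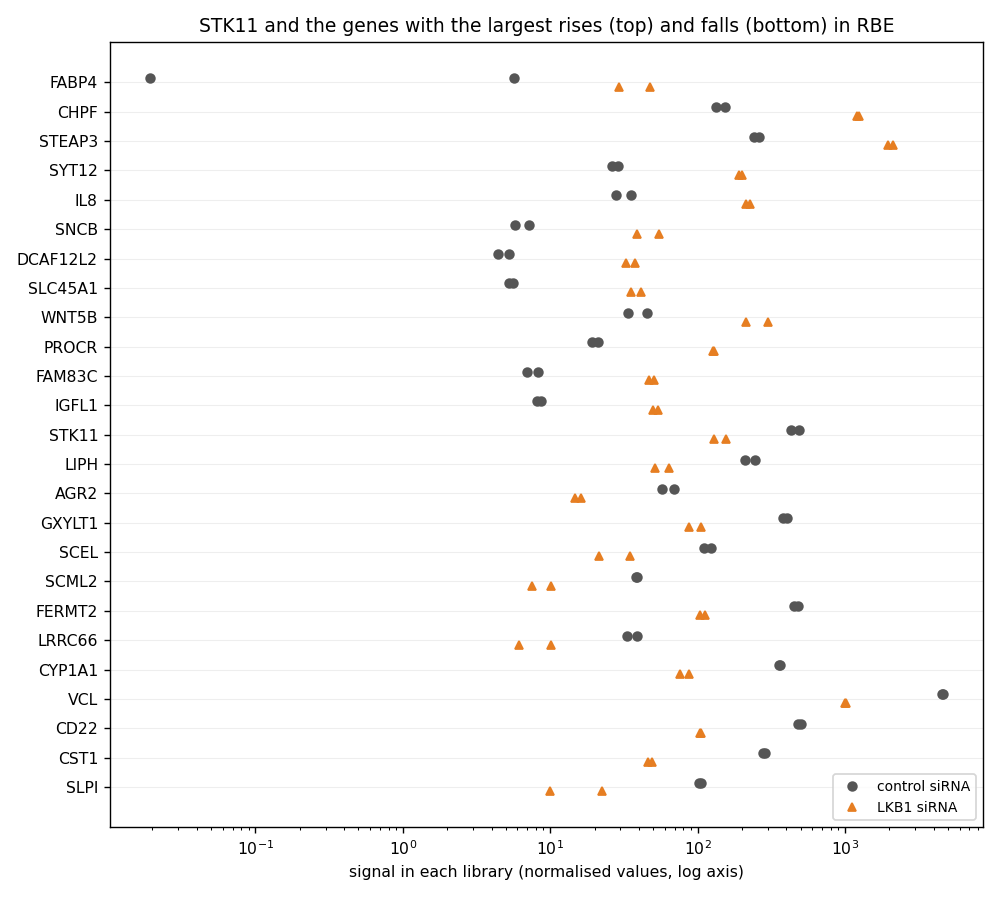
Signal of each RBE library on a log axis for the 12 largest rises (top, FABP4 first), STK11 and the 12 largest falls (bottom, SLPI last), with circles for control siRNA and triangles for LKB1 siRNA. The groups do not overlap in any of the 25 genes, which for all but STK11 was largely set by choosing the largest called changes. FABP4 has the widest control pair, at 5.705 and 0.01924.

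The 3′ UTRs of these genes were searched on the sense strand for 3 words of 7 bases, which were GCAGTAC, then CAGTACA, which can begin 1 base later in the same run of letters, and GAAGGAA. The first 2 overlap in all but 1 letter at each end, and all were chosen with earlier results of these data known. For each gene the longest 3′ UTR in GENCODE v29 (GRCh38) was taken, which was found for 13420 (92.8%) of the RBE genes. GCAGTAC occurred in 13.3% of the genes called higher, 2.51% of those called lower and 5.12% of all. GAAGGAA occurred in 38.6% of the genes called lower, 20.6% of those called higher and 21.3% of all. CAGTACA occurred in 15.8%, 7.52% and 8.87% of higher, lower and all genes. The median log2 fold change was 0.28 in the 687 genes with GCAGTAC and 0.02 in those without it, and -0.04 in the 2859 genes with GAAGGAA and 0.05 in those without it. In the shortest, middle and longest UTRs, each a tertile of the searched genes, 23.5%, 18.8% and 14.0% of the genes with GCAGTAC were called higher, against 5.81%, 5.30% and 5.31% without it. A match is a description of the sequence, and its part in any gene's change was not tested. The windows below show 1 site with 10 bases on either side in each of 3 genes that rose and 3 that fell, with the word in capitals, because these genes carry some of the largest changes.
CHPF (rose, chr2:219539099-219539125, minus strand): acgtatttatGCAGTACagtctgcctg
STEAP3 (rose, chr2:119263473-119263499, plus strand): tcaaatgtatGCAGTACtattcagaat
ALCAM (rose, chr3:105575545-105575571, plus strand): aatttatcaaGCAGTACatgaaagtgt
VCL (fell, chr10:74118203-74118229, plus strand): ctactaaaaaGAAGGAAaatgatctga
FERMT2 (fell, chr14:52857848-52857874, minus strand): gtttgaccttGAAGGAAaatgctatta
GXYLT1 (fell, chr12:42087714-42087740, minus strand): agataagtgtGAAGGAAtcgtcttgga
Of the other genes above, LIPH and SCML2 also held GAAGGAA, STEAP3 and FABP4 held it although they rose, and WNT5B, PROCR, SLPI, CST1, CYP1A1 and STK11 held none of the 3 words. The counts of the gene lists below are therefore also given for the members in which none of these words was found, called word-free or without the words here. They include genes with no 3′ UTR to search, such as IL8 and ATP5C1, in which the words were not looked for.

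Genes of cell division fell together. Of 46 measured genes of mitosis and the spindle, 43 fell and 1 rose, with a median log2 fold change of -0.79, while 20.5% of all genes fell. HMMR, a spindle-associated hyaluronan receptor, changed from 1334 and 1406 to 442.1 and 378.1 (-1.74 ± 0.08, adjusted p = 2.53e-07, limma). KIF23, a kinesin of the midzone, changed from 1295 and 1236 to 511.7 and 541.3 (-1.26 ± 0.05, adjusted p = 1.07e-07). The control and LKB1 siRNA values of both genes were far apart. CENPF, a kinetochore protein, changed by -1.18 ± 0.15 (adjusted p = 0.00014). The mitotic cyclin CCNB1, the anaphase activator CDC20 and the kinase PLK1 changed by -0.83, -0.85 and -0.61, and each passed. The single rise was PRC1, a bundler of midzone microtubules, at 0.37. Of the 38 members without any of the 3 words, all 38 fell.

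The machinery of DNA replication moved the same way. Of 48 genes of replication and S phase, 37 fell and 2 rose, with a median of -0.46. MCM10, a replication initiation factor, changed from 542.1 and 540.5 to 290.8 and 293.1 (-0.89 ± 0.06, adjusted p = 3.16e-06, limma). The transcription factor E2F1 changed from 654.9 and 607.9 to 358.2 and 336.8 (-0.86 ± 0.07, adjusted p = 7.74e-06), and GINS1, a helicase subunit, by -0.77 ± 0.07 (adjusted p = 1.94e-05). The 2 rises were CCNE1 at 0.29 and POLD3 at 0.54. Of the 40 members with none of the words, 31 fell and 1 rose. Among 27 G1 cyclins, CDKs and their inhibitors, 13 fell and 7 rose, and of 18 word-free members 8 fell and 6 rose. CDKN2C, an inhibitor of CDK4 and CDK6, fell from 452.5 and 421.9 to 195.4 and 200.1 (-1.14 ± 0.05, adjusted p = 3.69e-07) and CDK6 itself by 0.83 on the log2 scale. MELK, an AMPK-related kinase with a cell cycle dependent level, fell from 657.4 and 655.4 to 264.3 and 277.7 (-1.27 ± 0.05, adjusted p = 1.07e-07).

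Targets of p53 rose. Of 30 measured genes, 21 rose and 1 fell (FBXW7), with a median of 0.54, while 24.2% of all genes rose. SESN1, a sestrin that restrains mTORC1, rose from 194.7 and 189.3 to 603.6 and 630.8 (1.68 ± 0.08, adjusted p = 5.11e-07, limma). TP53INP1, a p53-induced stress protein, rose from 118.7 and 129.9 to 404.1 and 380.8 (1.66 ± 0.10, adjusted p = 1.17e-06), and RRM2B, the p53-inducible subunit of ribonucleotide reductase, by 1.31 ± 0.08 (adjusted p = 1.8e-06). In all of them the LKB1 siRNA values were above both control values. SESN1, TP53INP1 and RRM2B each held CAGTACA. CDKN1A (p21), an inhibitor of CDKs, was at 4504 and 4328 with control siRNA and at 7526 and 8044 with LKB1 siRNA, a rise of 0.82 ± 0.07 on the log2 scale. MDM2, the ubiquitin ligase of p53, did not pass (-0.03 ± 0.06). Of the 19 targets without the words, 14 rose and 0 fell.

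Several regulators of apoptosis from the BCL2 family rose as well, 10 of 20, while 4 fell, and of 12 word-free members 6 rose and 2 fell. The BH3-only genes BMF, BBC3 (PUMA) and PMAIP1 (NOXA) rose by 1.34, 0.94 and 0.78, with BMF going from 230.9 and 232.5 to 578.5 and 598.8 (adjusted p = 4.61e-07, limma). BBC3 and PMAIP1 are p53 targets as well and stand in both lists. The antiapoptotic MCL1 fell by 0.46 on the log2 scale.

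**Figure D3:**
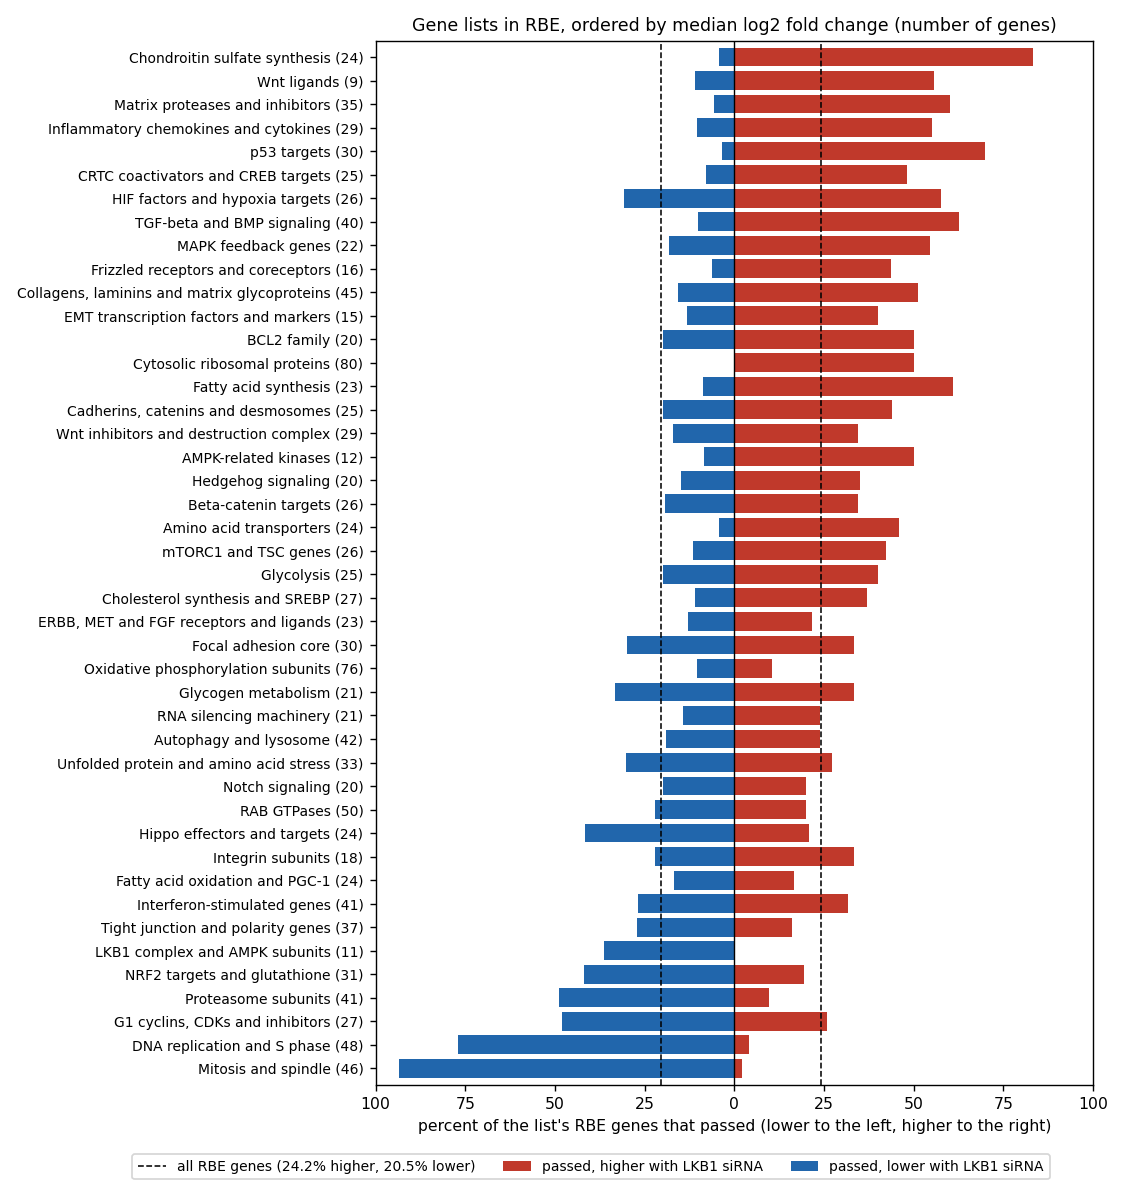
Percent of each list's measured genes that passed higher (red, to the right) or lower (blue, to the left) with LKB1 siRNA in RBE, for 44 gene lists ordered by median log2 fold change, with the number of genes in brackets. Dashed lines give the share over all RBE genes, 24.2% higher and 20.5% lower, and the lists for mitosis and replication lie farthest to the left of the latter.

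The chondroitin sulfate list rose beyond CHPF. Of 24 measured genes of chondroitin and dermatan sulfate synthesis, 20 rose and 1 fell (FAM20B, a xylose kinase), with a median of 0.72. CHST15, a sulfotransferase, rose from 101.6 and 113.1 to 370.8 and 382.8 (1.81 ± 0.29, adjusted p = 0.00073, limma), and CSGALNACT1, which starts the chain, from 11.13 and 10.94 to 37.3 and 37.02 (1.71 ± 0.15, adjusted p = 1.66e-05). Both replicates of each gene lay above the controls. Of the 13 members without the words 11 rose and 0 fell.

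Matrix genes and the proteases that act on matrix also rose more often than they fell. Of 45 collagens, laminins and matrix glycoproteins, 23 rose and 7 fell, with a median of 0.40. COL5A1, a fibrillar collagen chain, rose from 359.4 and 363.0 to 1786 and 1960 (2.37 ± 0.10, adjusted p = 1.59e-07, limma). NID1 (nidogen), a link between laminin and collagen in basement membranes, rose from 244.5 and 262.8 to 1167 and 1265 (2.26 ± 0.21, adjusted p = 2.28e-05). TNC (tenascin C), at 1030 and 908.7 with control siRNA, was at 3149 and 3103 with LKB1 siRNA (1.69 ± 0.08, adjusted p = 3.65e-07). The basement membrane chain COL4A1 fell by 0.69, whereas its partner COL4A2 rose by 0.72. Of 35 proteases and inhibitors, 21 rose and 2 fell, with a median of 0.65, and 1 fell without control replicate 1 or SSP-25, with the RBE libraries fitted alone, with a pseudocount of 10 or at a mean signal of at least 5. The membrane metalloproteinase MMP24 rose by 1.90 ± 0.09 (adjusted p = 3.65e-07) and the metalloproteinase ADAM12 by 1.81 ± 0.12 (adjusted p = 2.69e-06). The receptor of urokinase, PLAUR, rose by 1.09 and urokinase itself, PLAU, by 0.85. Without the words, 18 of 33 matrix genes rose and 4 fell, and 15 of 27 proteases and inhibitors rose and 0 fell.

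Cytokine genes of the TGF-β family rose. Of 40 genes of TGF-β and BMP signaling, 25 rose and 4 fell, with a median of 0.45. Among the ligands, INHBA, the activin βA chain, rose from 4.854 and 7.262 to 35.64 and 38.23 (2.54 ± 0.14, adjusted p = 7.5e-07, limma). GDF15, a stress-induced member, rose from 942.2 and 913.3 to 3920 and 4236 (2.13 ± 0.13, adjusted p = 1.51e-06). Both groups of each gene were tight. GDF11 rose by 2.06, BMP2 by 1.87, TGFB2 by 0.94, TGFB3 by 0.88 and TGFB1 by 0.82. Among the receptors, TGFBR1 rose from 116.5 and 115.2 to 500.9 and 539.5 (2.16 ± 0.06, adjusted p = 1.87e-08), whereas TGFBR2 fell by 0.85 and TGFBR3 by 1.05. Of the transducers SMAD2 rose by 0.75 and SMAD4 fell by 0.41, and the antagonists NOG and FST rose by 1.36 and 1.50. Of the 19 members without the words 14 rose and 1 fell.

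Inflammatory chemokines and cytokines rose in 16 of 29 genes and fell in 3, with a median of 0.55. Beside IL8, the neutrophil chemokine CXCL1 rose from 14.25 and 9.662 to 51.83 and 56.5 (2.16 ± 0.30, adjusted p = 0.000315, limma). IL6ST, the shared receptor chain of the IL-6 family, rose from 363.0 and 369.4 to 1443 and 1349 (1.93 ± 0.07, adjusted p = 1.07e-07) and held all 3 words. The monocyte chemokine CCL2 rose from 105.2 and 96.73 to 258.5 and 338.9, by 1.55 on the log2 scale, and IL32 by 1.18. CXCL6 rose by 2.49 at a mean signal of 19.2, and IL1B, at 1.909 and 0.01339 with control siRNA and 9.9 and 4.158 with LKB1 siRNA, by 2.65. Of the 17 members in which no word was found, 10 rose and 0 fell, and these include IL8, whose 3′ UTR was not searched. Of 41 interferon-stimulated genes 13 were higher (31.7%) and 11 lower (26.8%), with 10 and 7 of 32 word-free members. These shares lay near the 24.2% and 20.5% of all genes. TRIM22 rose by 1.36, and DDX60 and IFIT1 fell by 0.95 and 0.93.

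**Figure D4:**
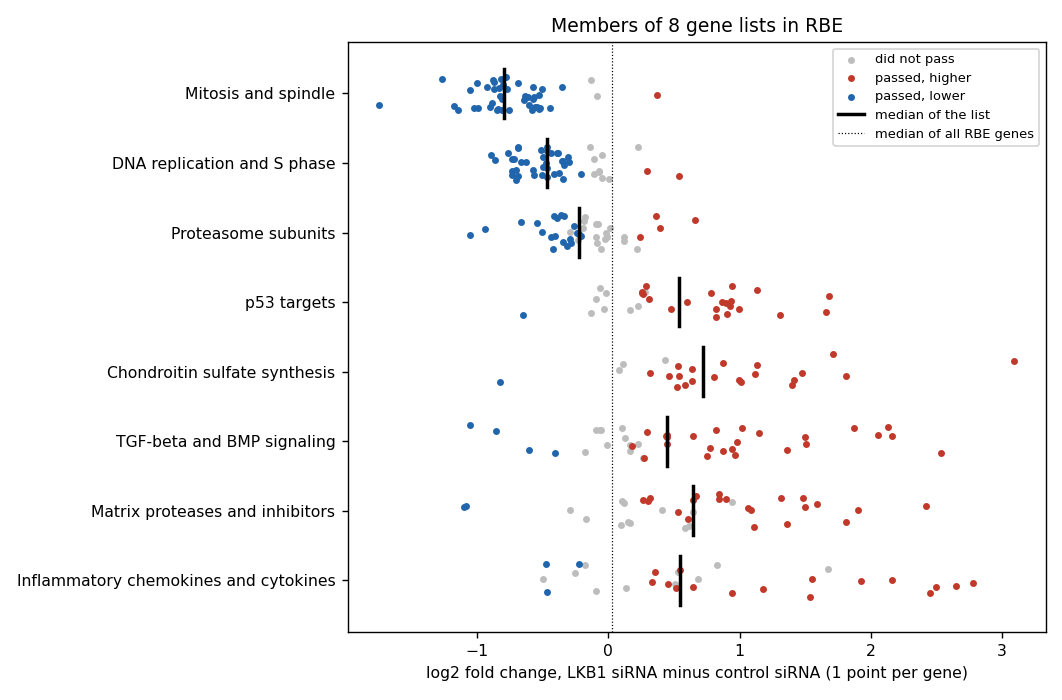
Log2 fold change of each measured member of 8 gene lists in RBE, 1 point per gene, colored by whether the gene passed higher (red), passed lower (blue) or did not pass (gray). Black bars are the list medians, at -0.79 for mitosis, -0.46 for replication, 0.54 for p53 targets and 0.72 for chondroitin sulfate synthesis, and the dotted line is the median over all RBE genes at 0.03.

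Wnt signaling, which the study followed in these cells, was read by the role of its genes. Of 9 measured ligands, 5 rose and 1 fell, and the same numbers were found among the 8 word-free ligands. WNT10B rose from 14.18 and 10.21 to 43.95 and 47.42 (1.88 ± 0.20, adjusted p = 5.06e-05, limma), and WNT7B from 357.5 and 315.1 to 460.4 and 473.5 (0.48 ± 0.13, adjusted p = 0.0174). WNT4 lay near the floor of the table, at 0.2421 and 0.5446 against 1.017 and 1.335 (0.92 ± 0.32, adjusted p = 0.0421). Without control replicate 1, LKB1 siRNA replicate 1 or LKB1 siRNA replicate 2, WNT4 had an adjusted p of 0.217, 0.0755 and 0.179, and WNT7B had 0.121, 0.0641 and 0.0872 without control replicate 2, LKB1 siRNA replicate 1 or LKB1 siRNA replicate 2. WNT2B did not pass (0.65 ± 0.34, adjusted p = 0.166) except without control replicate 2 (1.19), and WNT5A fell by 0.48. The count of ligands that rose was 3 without LKB1 siRNA replicate 1, 2 without LKB1 siRNA replicate 2 or SSP-25, and 3 with a pseudocount of 10 or at a mean signal of at least 5. No ligand fell without control replicate 2 or LKB1 siRNA replicate 2, or with the RBE libraries fitted alone. Of 16 receptors and coreceptors, 7 rose and 1 fell (5 and 1 of 11 word-free members, with none lower without LKB1 siRNA replicate 2). Among the rises were those of FZD2 from 349.6 and 342.5 to 708.8 and 685.1 (1.01 ± 0.10, adjusted p = 3.74e-05), FZD7 (0.79 ± 0.13, adjusted p = 0.000703) and LRP6 (0.63 ± 0.07, adjusted p = 4.89e-05). FZD1 had a log2 fold change of 0.23 ± 0.11 (adjusted p = 0.125), which passed with the RBE libraries fitted alone or without HuH-28 (adjusted p = 0.0459 and 0.0327).

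Downstream of the receptors counts lay closer to those of all genes, of which 24.2% rose and 20.5% fell. Of 29 inhibitors and parts of the destruction complex 10 rose and 5 fell, with BTRC, the ubiquitin ligase of β-catenin, higher by 1.22 and RNF43, a ligase that removes Frizzled receptors, lower with a log2 fold change of -0.97. Without control replicate 1 or LKB1 siRNA replicate 2, RNF43 did not pass (adjusted p = 0.0758 and 0.0721). The list's 5 falls became 2 and 3 without these libraries, its 10 rises became 6 without LKB1 siRNA replicate 1, and of 16 word-free members 5 rose and 4 fell. CTNNB1, β-catenin, rose from 3273 and 3190 to 4066 and 4159 (0.35 ± 0.04, adjusted p = 0.000185, limma). Of 26 genes listed as β-catenin targets 9 rose (34.6%) and 5 fell (19.2%), against 6 and 4 of 18 word-free members. MYC rose from 1684 and 1830 to 2513 and 2520 (0.52 ± 0.06, adjusted p = 5.38e-05), whereas CCND1, at 6414 and 6719 against 7425 and 7602, did not pass (0.19 ± 0.09, adjusted p = 0.1) but passed with the RBE libraries fitted alone (adjusted p = 0.0274) or without HuH-28 (adjusted p = 0.033). EPHB2 rose by 1.27 and ID2 fell by 1.22. In the Hedgehog list 7 of 20 genes rose and 3 fell (5 and 2 of 14 word-free members). The falls became 1 without control replicate 1 and 0 without LKB1 siRNA replicate 2. The effector GLI1 rose from 10.96 and 12.58 to 23.17 and 22.32 (0.92 ± 0.19). In the Notch list 4 of 20 rose, with RBPJ and NOTCH1 at 1.31 and 1.08, and 4 fell, 20% each way and near the shares of all genes. All 8 were among the 16 word-free members, and 1 fell without control replicate 1 or LKB1 siRNA replicate 2 and 2 without control replicate 2.

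AMPK-related kinases, CREB targets, MAPK feedback genes and mTORC1 genes gave the following counts, where 24.2% of all genes rose and 20.5% fell. Of 12 AMPK-related kinases 6 rose and 1 fell, MELK, which LKB1 is not known to activate, but of 7 word-free members 2 rose and 1 fell. SIK1 rose from 592.8 and 559.8 to 1161 and 1191 (1.03 ± 0.07, adjusted p = 2.97e-06, limma) and NUAK2 from 332.3 and 327.3 to 524.0 and 561.7 (0.72 ± 0.06, adjusted p = 1.11e-05). Of 25 CRTC coactivators and CREB targets, 12 rose and 2 fell, with a median of 0.51, and of 15 word-free members 8 rose and 1 fell. The falls became 1 without control replicate 2, LKB1 siRNA replicate 1, LKB1 siRNA replicate 2 or SSP-25, or with the RBE libraries fitted alone. DUSP1, a phosphatase of MAP kinases and a CREB target, rose from 141.8 and 134.6 to 569.6 and 529.2 (1.99 ± 0.07, adjusted p = 7.29e-08), and the orphan receptor NR4A1 by 2.21 at a mean signal of 14.2. ID1 fell by 0.75. Of 22 MAPK feedback genes 12 rose and 4 fell (9 and 2 of 14 word-free members), and 2 fell without control replicate 1, control replicate 2 or LKB1 siRNA replicate 2. Among the rises were DUSP8 (1.92 ± 0.20, adjusted p = 4.51e-05) and DUSP5 (1.20 ± 0.06, adjusted p = 3.65e-07). Of 26 mTORC1 and TSC genes 11 rose and 3 fell, but of 15 word-free members 4 rose and 2 fell. RRAGD, a Rag GTPase, fell by 1.01.

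Adhesion genes were found among the rises and among the falls. In the focal adhesion list 10 of 30 genes rose (33.3%) and 9 fell (30%), near the 24.2% and 20.5% of all genes, and of 19 word-free members 7 rose and 3 fell. TLN1 (talin 1), the integrin activator that binds vinculin, rose from 248.7 and 243.4 to 799.5 and 879.7 (1.77 ± 0.07, adjusted p = 1.65e-07, limma), opposite to VCL and FERMT2. TLN1 held GCAGTAC and CAGTACA. Zyxin (ZYX) rose by 1.17. Of 18 integrin subunits 6 rose (33.3%) and 4 fell (22.2%), also near those shares (5 and 2 of 12 word-free members), and 2 fell without control replicate 1 or LKB1 siRNA replicate 2. Among the falls was ITGB4, the β chain of hemidesmosomes, from 2437 and 2385 to 1271 and 1331 (-0.89 ± 0.15, adjusted p = 0.000913). ALCAM, an adhesion molecule of the immunoglobulin family, rose from 154.0 and 159.2 to 711.6 and 658.6 (2.12 ± 0.06, adjusted p = 1.87e-08), and the cadherin CDH6 by 1.76 ± 0.09 (adjusted p = 6.31e-07).

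The classical cadherins moved apart. CDH1 (E-cadherin) changed from 225.8 and 178.9 to 126.1 and 106.0 (-0.79 ± 0.13, adjusted p = 0.000936, limma), and CDH2 (N-cadherin) from 1420 and 1379 to 2410 and 2440 (0.79 ± 0.05, adjusted p = 2.01e-06). CDH2 was the more abundant of the pair in every library, on a scale already divided by length. Of 15 genes of epithelial-mesenchymal transition 6 rose and 2 fell (4 and 1 of 9 word-free members). FN1 and SPARC rose by 0.80 and 0.97, and VIM (vimentin) fell by 0.75. Of 37 tight junction and polarity genes 10 fell and 6 rose (6 and 4 of 25 word-free members), and 3 rose without LKB1 siRNA replicate 2. With all libraries the falls made up 27% and the rises 16.2% of that list, against 20.5% and 24.2% of all genes. Among the passing genes were CLDN12 lower by 1.72 on the log2 scale and CLDN4 higher by 0.72. In the list of biliary markers the keratins KRT8 and KRT18 fell by 0.67 and 0.60, whereas KRT7 was at 14980 and 14460 with control siRNA against 14240 and 14660. CD24, a mucin-like surface glycoprotein, rose from 702.6 and 641.5 to 1586 and 1305 (1.10 ± 0.10, adjusted p = 2.32e-05), and the water channel AQP1 rose by 1.63 ± 0.28 (adjusted p = 0.00107). Summed over the 20 biliary markers the signal was 63100 and 59100 with control siRNA and 53500 and 52900 with LKB1 siRNA. Of these 20 markers 5 rose (25%) and 3 fell (15%), against 24.2% and 20.5% of all genes. The falls became 6 with the RBE libraries fitted alone and 7 without HuH-28. Abundant keratins carry much of the sum, such as KRT8 at 14530 and 12590 against 8552 and 8414. The summed signal of the 15 measured hepatocyte markers was 1640 and 1490 against 2070 and 2030, that of the 6 measured blood cell markers 982 and 974 against 957 and 916, and that of the 12 measured fibroblast and endothelial markers 943 and 1090 against 917 and 950. In bulk RNA a smaller share of cells and less RNA per cell cannot be told apart, and the part of these markers in the other results was not tested.

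Genes of hypoxia and metabolism gave the following values, where 24.2% of all genes rose and 20.5% fell. HIF1A, the oxygen-regulated α subunit of HIF-1, rose from 1192 and 1218 to 2674 and 2553 (1.12 ± 0.06, adjusted p = 1.13e-06, limma) and held GCAGTAC, and EPAS1 (HIF-2α) rose from 723.4 and 704.6 to 1577 and 1549 (1.13 ± 0.08, adjusted p = 4.57e-06) and held none of the words. Of 26 HIF factors and targets 15 rose and 8 fell, but of 13 word-free members 7 rose and 3 fell. The 8 falls became 3 without control replicate 1 or LKB1 siRNA replicate 2, 4 without control replicate 2, and 5 without SSP-25 or a trend in the fit. The carbonic anhydrase CA12 rose by 1.94 ± 0.11 (adjusted p = 7.82e-07), CA9 by 1.88 ± 0.60 at a mean signal of 6.79 (adjusted p = 0.0314), and VEGFA by 0.88, whereas NDRG1 and BNIP3 fell by 0.50 and 0.43. With any 1 of the 4 RBE libraries left out, CA9 had an adjusted p of 0.0567 to 0.164. Of 25 glycolysis genes 10 rose and 5 fell (9 and 3 of 19 word-free members). The 5 falls became 1 without LKB1 siRNA replicate 2, 2 without control replicate 1, control replicate 2 or SSP-25, and 3 without LKB1 siRNA replicate 1, with the RBE libraries fitted alone or with no filter on low values. Passing genes included rises of the lactate carrier SLC16A1 (1.15) and of LDHB (0.96) and a fall of GAPDH by 0.38. The glycogen branching enzyme GBE1 fell from 440.3 and 458.7 to 160.2 and 160.0 (-1.49 ± 0.06, adjusted p = 1.26e-07).

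Lipid synthesis genes rose more often than they fell, where 24.2% of all genes rose and 20.5% fell. Of 23 fatty acid synthesis genes 14 rose and 2 fell (9 and 1 of 17 word-free members), and 1 fell without control replicate 1, control replicate 2 or LKB1 siRNA replicate 1 or with the RBE libraries fitted alone. Among the rises were the elongase ELOVL7 (1.54 ± 0.15, adjusted p = 3.44e-05, limma), FASN (0.69) and ACACA (0.44), and ACACB, the mitochondrial acetyl-CoA carboxylase, from 22.26 and 20.92 to 41.72 and 42.78. Of 27 cholesterol genes 10 rose and 3 fell (7 and 3 of 21 word-free members), and 5 fell with the RBE libraries fitted alone. In the oxidative phosphorylation list 8 of 76 genes were higher and 8 lower, the smallest share of passing genes among the 44 lists that do not mark cell types, and ATP5C1, the γ subunit of ATP synthase, was its largest fall at -1.08 ± 0.07 (adjusted p = 3.13e-06). Of its 66 word-free members 6 rose and 6 fell. The rises became 5 without any 1 of the 4 RBE libraries or without SSP-25, 15 with the RBE libraries fitted alone, 21 without HuH-28 and 20 with the replicate block. The falls became 4 without control replicate 1, LKB1 siRNA replicate 2, SSP-25 or a trend, and 5 without LKB1 siRNA replicate 1. For fatty acid oxidation 4 of 24 rose and 4 fell, 16.7% each way and below the shares of all genes (2 and 2 of 15 word-free members). There the rises became 1 without control replicate 2, LKB1 siRNA replicate 1 or LKB1 siRNA replicate 2 and 2 without a trend, and the falls 2 without control replicate 1.

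Ribosomal protein and proteasome genes moved in opposite directions by small steps. Of 80 cytosolic ribosomal protein genes 40 rose and 0 fell, with a median of 0.31 and a largest passing change of 0.56 in RPS2. That count was 20 without control replicate 2, 21 without LKB1 siRNA replicate 2, and 63 when HuH-28 was left out of the fit or with the replicate block. Of 67 word-free members 36 rose. Of 41 proteasome subunits 20 fell and 4 rose, with a median of -0.23 (16 and 3 of 32 word-free members). The falls became 11 without control replicate 1 and 12 without LKB1 siRNA replicate 1, and the rises 2 without control replicate 2 or LKB1 siRNA replicate 2. PSMD2, a base subunit of the regulatory particle, fell from 5869 and 5760 to 2744 and 2857 (-1.05 ± 0.07, adjusted p = 3.08e-06, limma), whereas PSMB8 and PSMB10 of the immunoproteasome rose by 0.40 and 0.24. Ribosomal protein genes have many processed pseudogenes, so reads may be divided between copies.

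Stress and transport genes were found among the rises and among the falls. Of 31 NRF2 targets and glutathione genes 13 fell and 6 rose (12 and 4 of 25 word-free members), with NQO1 lower by 0.70 on the log2 scale and HMOX1 higher from 207.3 and 215.0 to 439.9 and 574.6 (1.25 ± 0.10, adjusted p = 9.84e-06, limma). Of 33 genes of the unfolded protein and amino acid responses 10 fell (30.3%) and 9 rose (27.3%), with 5 and 9 of 25 word-free members. Over all genes 20.5% fell and 24.2% rose. SEL1L, an adaptor of ER-associated degradation, was at -1.79 ± 0.09 (adjusted p = 3.69e-07, limma) and ATF3 at 1.17 ± 0.14 (adjusted p = 0.000126). Of 24 amino acid transporters 11 rose and 1 fell, SLC7A11, the cystine carrier, and of 13 word-free members 5 rose and 1 fell. The rises became 7 without control replicate 2, and the falls 3 with the RBE libraries fitted alone, without HuH-28 or after quantile normalization and 2 with the replicate block. Of 42 autophagy and lysosome genes 10 rose (23.8%), including ULK1 (1.13) and LAMP2 (1.22), and 8 fell (19%), including ATG4A (-1.28), near the shares of all genes, with 9 and 5 of 33 word-free members. The rises became 5 without control replicate 2 and 6 without LKB1 siRNA replicate 2, and the falls 4 without control replicate 2 or LKB1 siRNA replicate 1 and 5 without LKB1 siRNA replicate 2.

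Among the remaining lists the Hippo genes fell in 10 of 24 and rose in 5 (5 and 3 of 15 word-free members), with YAP1 at -0.71 and AJUBA at -0.86. The glycogen genes rose in 7 of 21 and fell in 7 (6 and 6 of 17 word-free members). The counts of 3 lists lay at or below the 24.2% and 20.5% of all genes that rose and fell, or within 2 points above them. The RAB GTPases rose in 10 of 50 (20%) and fell in 11 (22%), with RAB31 and RAB8A at -1.74 and -1.53, with 4 and 8 of 31 word-free members and with 7 falls without LKB1 siRNA replicate 2. The ERBB, MET and FGF genes rose in 5 of 23 (21.7%) and fell in 3 (13%), with 4 and 1 of 15 word-free members. Their rises became 2 without control replicate 2 and 3 without LKB1 siRNA replicate 1 or LKB1 siRNA replicate 2, and their falls 1 without control replicate 1. The RNA silencing genes rose in 5 of 21 (23.8%) and fell in 3 (14.3%), with 2 and 1 of 11 word-free members. Their falls became 1 without LKB1 siRNA replicate 1, 5 with the RBE libraries fitted alone and 7 without HuH-28 or with the replicate block.

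The change in RBE was set against the mean change of HuH-28 and SSP-25 by a test of the difference itself. This difference was called for 520 of the 14460 genes (3.60%), higher in RBE for 317 (2.19%) and lower for 203 (1.4%), and it passed without the fold limit for 10.7% higher and 7.56% lower. In the mitosis list the difference passed lower in RBE for 40 of 46 genes and higher for 0, with a median difference of -0.51. The list's own counts of falls were 43 in RBE, 33 in HuH-28 and 21 in SSP-25, where 20.5%, 16.9% and 23% of all these genes fell, with median log2 fold changes of -0.79, -0.35 and -0.16. In the replication list the difference passed lower for 18 of 48 genes and higher for 0.

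For p53 targets the difference passed higher in RBE for 23 of 30 genes and lower for 0, with a median difference of 0.54. In HuH-28 the list rose in 10 genes and fell in 5, and in SSP-25 it rose in 9 and fell in 11, against 15.1% and 22.1% of all these genes that rose. CDKN1A rose in RBE by 0.82, against 0.08 in HuH-28 and -0.40 in SSP-25, a difference of 0.98 ± 0.08 (SE, adjusted p = 0.000134, limma). MDM2 did not pass in RBE but was at -0.80 and -0.74 in the other lines, so its difference was 0.74 ± 0.07 (adjusted p = 0.000214). Of the 29 inflammatory genes the difference passed higher for 15 and lower for 4. IL8 rose by 2.77 in RBE, against -0.28 in HuH-28 and 0.09 in SSP-25 (difference 2.87 ± 0.17, adjusted p = 2.54e-05). CXCL1 had changes of -0.98 and -1.25 there, opposite to its rise in RBE (difference 3.27 ± 0.37, adjusted p = 0.000498).

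Further lists gave the following counts. In the TGF-β and BMP list the difference passed higher for 12 of 40 and lower for 2, with GDF15 at 0.12 in HuH-28 and -1.06 in SSP-25 (difference 2.60 ± 0.16, adjusted p = 2.54e-05, limma). Among matrix proteases and inhibitors it passed higher for 14 of 35 and lower for 2. Among NRF2 targets it passed higher for 13 of 31 and lower for 1. That list fell in 13 genes in RBE, 19 in HuH-28 and 18 in SSP-25, where 20.5%, 16.9% and 23% of all these genes fell. Its median log2 fold changes were -0.15, -0.30 and -0.32, so its median fall was smaller in RBE. Among collagens and matrix glycoproteins it passed higher for 11 of 45 and lower for 8, among MAPK feedback genes higher for 8 of 22 and lower for 6, in the BCL2 family higher for 9 of 20 and lower for 3, and among β-catenin targets higher for 6 of 26 and lower for 7.

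Genes that hold the words were found with and without a passing difference. It did not pass for CHPF (0.30 ± 0.11, adjusted p = 0.0939, limma), VCL (0.25 ± 0.09, adjusted p = 0.0883), ALCAM (-0.05 ± 0.07, adjusted p = 0.711) and GXYLT1 (-0.06 ± 0.12, adjusted p = 0.774), nor for SCML2 and FABP4 (adjusted p = 0.289 and 0.0851). It passed at 0.41 for STEAP3 (adjusted p = 0.0185) and -0.46 for FERMT2 (adjusted p = 0.0032). It was called for COL5A1 (1.49), NID1 (1.05), INHBA (1.84) and LIPH (1.63), of which the first 2 hold GCAGTAC and the other two GAAGGAA. A p that misses the threshold does not show that the lines changed alike.

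Beside CXCL1, the named genes with the largest called differences were lower in RBE. KRT81, a hair keratin, fell from 3551 and 3158 to 1090 and 1046 in RBE (-1.65) and rose in HuH-28 (0.66) and SSP-25 (2.62), a difference of -3.29 ± 0.10 (adjusted p = 5.49e-07, limma). KRT83, a related keratin, fell from 712.1 and 576.4 to 208.4 and 186.9 (-1.70), with changes of 0.11 and 2.61 elsewhere. The 2 keratins are close paralogs, so reads may have been shared between them. KIAA1199 (CEMIP), a hyaluronan-binding protein, fell from 114.1 and 86.3 to 26.8 and 25.95 (-1.89) and rose by 0.67 and 1.94. CDH1 fell in RBE by 0.79 and rose in HuH-28 by 1.57, with a difference between RBE and the mean of the other lines of -1.67 ± 0.16 (adjusted p = 0.000224, limma). The study lists CDH1 as lower in RBE, HuH-28 and SSP-25. For HuH-28 this is opposite in sign to the rise found here, and the SSP-25 values were not compared. C6orf58 went the opposite way, higher in RBE (0.90) and lower in HuH-28 and SSP-25 (-2.72 and -1.56). Its rise in RBE had an adjusted p of 0.0526 and 0.0528 without control replicate 1 or LKB1 siRNA replicate 2.

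**Figure D5:**
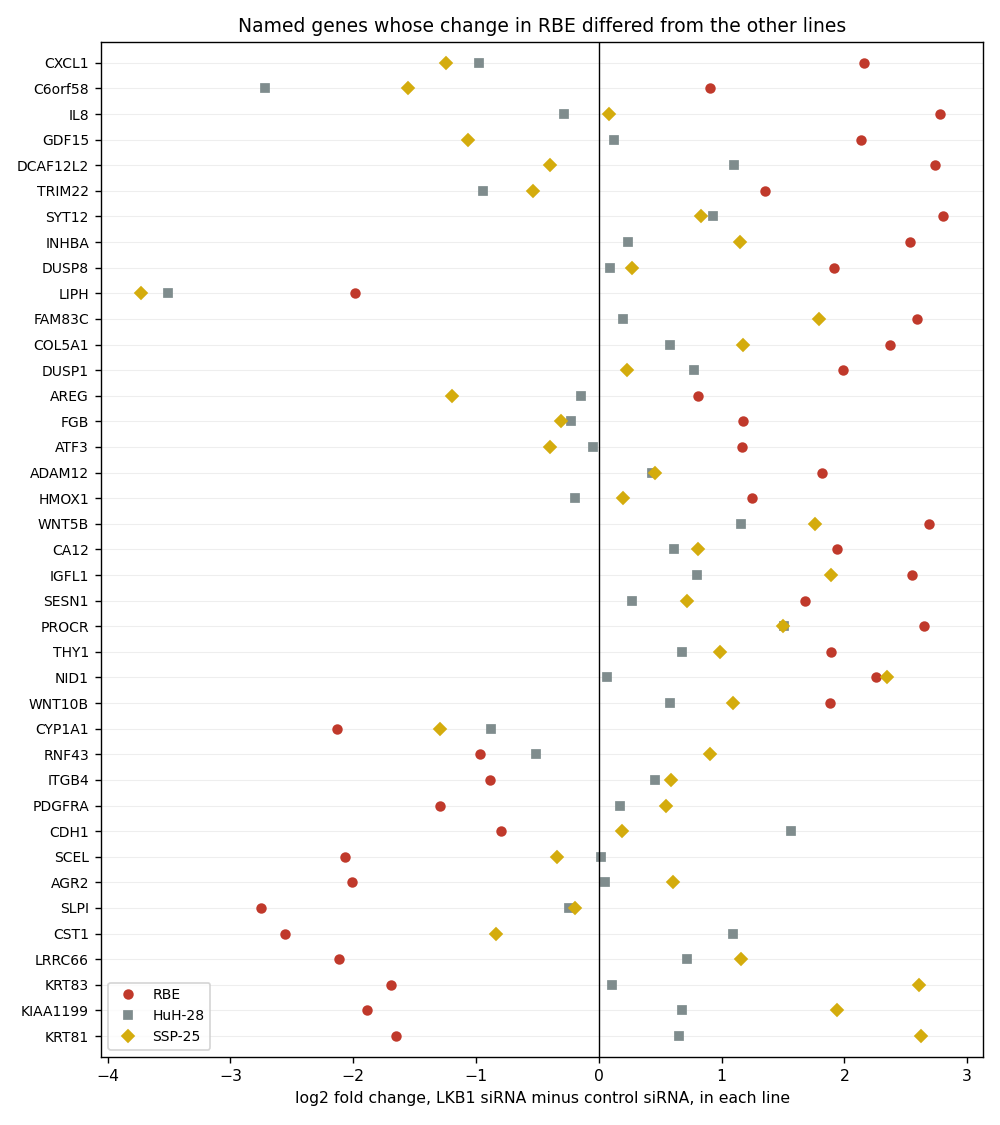
Log2 fold change (LKB1 siRNA minus control siRNA) in RBE (red circles), HuH-28 (gray squares) and SSP-25 (yellow diamonds) for the 39 named genes whose difference between RBE and the other lines was called, ordered by that difference. The difference was higher in RBE for 26 genes, CXCL1 at the top, and lower for 13, KRT81 at the bottom.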

How the data were processed

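RNA of 12 libraries was sequenced with single reads, and the 4 RBE libraries were compared. Values were used as the authors deposited them: a table of normalized reads per kilobase, a signal that need not be whole. NextGENe, an older genome build and RefSeq are described in the study's methods. TopHat 1.2.0, edgeR and hg19 (GRCh37) are listed in the submitters' processing notes. The pipeline behind the table is thus not given here with certainty. Of 18815 rows, 28 held dates in place of symbols and 23 were repeats and were removed, and values under 1e-06 were set to 0. No read depth could be recovered.

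Genes that reached 1 in 2 or more of the 12 libraries, 16120 in all, were fitted as log2(signal + 0.5) with limma 3.58.1 (R 4.3.3), with a mean per group, eBayes with trend, 6 residual degrees of freedom and Benjamini-Hochberg adjustment over all 16120. All 14460 RBE genes were in this fit. The script was tested on simulated data. Members, words and all gene lists were chosen with earlier results of these data known, lists were described by counts and medians without a set test, and a gene may stand in several lists. Named genes were STK11, the 12 largest rises and falls at a mean signal of at least 20, up to 3 members of each list with the largest passing changes, genes the study names, and the 6 largest differences between lines. Most were thus chosen for large changes, so the separation of their groups is not a separate result. Some genes are counted in their lists but not reported here. Other list members with values were added after these were seen. UTRs were taken from GENCODE v29, and the table has no coordinates. Figures were drawn with matplotlib. Alternatives changed the pseudocount, filter, scaling or threshold, and also used fits without a trend, a line or a library, RBE alone, a replicate block, or omission of genes with the 3 words.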

Additional observations from a re-analysis of the deposited data

Results flagged for a closer look

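The 39 named genes below were set apart because the difference between their change in RBE and the mean change in HuH-28 and SSP-25 passed its test (limma, adjusted p under 0.05) and exceeded 1 on the log2 scale. All values are log2 differences, RBE minus the mean of the other lines.

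Higher in RBE by more than 2 were the chemokines CXCL1 (3.27) and IL8 (2.87), C6orf58 (3.04), the growth factor GDF15 (2.60), DCAF12L2 (2.39) and the interferon-stimulated gene TRIM22 (2.10). Secreted factors followed, with INHBA (1.84), the EGFR ligand AREG (1.48), FGB (1.45), the Wnt ligands WNT5B (1.23) and WNT10B (1.04), and IGFL1 (1.20). Among matrix and surface genes the differences were 1.49 for COL5A1, 1.37 for ADAM12, 1.05 for NID1, 1.23 for CA12, 1.14 for PROCR and 1.06 for THY1. Stress and feedback genes were DUSP8 (1.74), DUSP1 (1.48), ATF3 (1.39), HMOX1 (1.25) and SESN1 (1.19). SYT12 (1.92) and FAM83C (1.60) completed the rises, and LIPH (1.63) fell in RBE by less than in the other lines.

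Lower in RBE were the keratins KRT81 (-3.29) and KRT83 (-3.06), KIAA1199 (-3.20), LRRC66 (-3.05), CST1 (-2.68), SLPI (-2.53), AGR2 (-2.34) and SCEL (-1.91). The adhesion genes CDH1 (-1.67) and ITGB4 (-1.41), the receptor PDGFRA (-1.65), the Wnt regulator RNF43 (-1.16) and CYP1A1 (-1.05) followed.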

How the results depend on the processing

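No direction of a named gene turned under any alternative run. Of the counts over all genes, those that moved by more than 1.5 times were as follows. With a pseudocount of 10, 399 genes were called higher, 173 lower and 232 with a difference between lines. Without genes holding 1 of the 3 words, 559 were called higher, 219 called lower and 1972 passed lower. At an adjusted p under 0.01 the difference was called for 272. Leaving out 1 RBE library at a time gave 724 to 805 genes called higher, 306 to 385 called lower, 2562 to 2770 passing higher, 2152 to 2338 passing lower, 355 to 416 with a called difference, and -1.81 to -1.55 for STK11; the lone library was then assumed to vary like the others. The replicate block gave 869 higher and 369 lower calls. Whether same-numbered RBE libraries were prepared together is not known, and their deviations had a correlation of 0.00227, so no shared deviation was seen. That correlation was 0.0325 in SSP-25 and 0.432 in HuH-28, whose libraries enter the shared spread without a block. Without HuH-28 4128 genes passed higher in RBE and 3553 lower, and with the replicate block 4060 and 3491, against 3506 and 2963. Of 96 counts of list members, 13 to 24 moved by more than 1.5 times when 1 RBE library was left out, 44 without the genes holding the words, 27 at an adjusted p under 0.01, 16 with the RBE libraries fitted alone, and at most 8 under each other alternative. CA9, WNT4, AKR1B10, SMO and WNT7B lost their pass most often, mostly without single RBE libraries. CCND1 and FZD1 passed without HuH-28 or with the block. Weak signals, with a median SE of 0.43 under a signal of 5, and the 2 libraries per group limit what can be read.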

Other observations

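Some genes outside the rule for named genes, chosen after their values were seen, had large changes in RBE. NRAS, a RAS GTPase that drives MAPK signaling, fell from 824.4 and 921.2 to 267.6 and 226.2 (log2 fold change -1.82 ± 0.10, SE, adjusted p = 8.26e-07, limma), and fell in HuH-28 and SSP-25 by 1.28 and 1.65. Its 3′ UTR held GAAGGAA. NDN (necdin), a growth suppressor of the MAGE family, rose from 173.2 and 167.2 to 970.5 and 930.2 (2.48 ± 0.26, adjusted p = 4.76e-05), with a difference from the other lines of 1.95 (adjusted p = 0.00292). CST4, a cystatin beside CST1, fell from 149.5 and 145.3 to 35.01 and 42.22 (-1.93 ± 0.27, adjusted p = 0.000291), and its changes in the other lines were 0.09 and 0.09. PPL (periplakin), a linker of desmosomes and the cornified envelope like SCEL, fell from 841.2 and 744.1 to 262.2 and 241.9 (-1.65 ± 0.27, adjusted p = 0.000791). KRT86, another hair keratin beside KRT81 and KRT83, fell from 783.6 and 700.5 to 348.7 and 339.8 (-1.10 ± 0.08, adjusted p = 4.76e-06) and had a difference from the other lines of -2.58 (adjusted p = 1.94e-06).

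The genes of the chorionic gonadotropin β cluster share nearly identical sequences, so their reads cannot be assigned to single copies. CGB8 had the highest signal, at 35.48 and 27.21 with control siRNA and 81.4 and 136.6 with LKB1 siRNA (1.75 ± 0.27, adjusted p = 0.000606, limma), and CGB5 rose by 1.83 ± 0.35 (adjusted p = 0.00219). ALDH3A1, which like CYP1A1 is induced through the aryl hydrocarbon receptor, fell from 61.29 and 46.27 to 17.95 and 15.56 (-1.64 ± 0.19, adjusted p = 7.88e-05), whereas CYP1B1, induced by the same receptor, rose by 0.50 ± 0.11 (adjusted p = 0.00483).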
